A study of Mus musculus with 9 samples.

Results

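The genes described here copy DNA in S phase or carry the cell through mitosis. The list held 45 genes, 21 of S phase and 24 of mitosis, and a gene was included where the accession of at least 1 array probe belonged to it. Of the 45 genes, 40 had such a probe (18 S-phase and 22 mitotic genes, 51 of the 41174 probes), and Orc1, Gins1, Gins2, Mki67 and Cenpf had none by this match. The rule for inclusion uses no measured value, but the list was drawn up with earlier results of these data known, and the 2 classes are described apart. All 51 probes read well above background on each of the 9 arrays, so the filter on dim probes removed none of them.

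The samples were FDCPmix cells, a mouse multipotent hematopoietic line that self-renews in interleukin 3 and can form several blood lineages. The cells were kept in self-renewal conditions and transduced with lentivirus (Lentilox 3.7) carrying a short hairpin RNA (shRNA) against Gata2 (the Gata2 KD group), an shRNA against Pu.1 (the Pu.1 KD group) or no shRNA (empty vector, EV). GFP-positive cells were sorted after 5 days and 150 ng of RNA from each sample was hybridized to a single-color Agilent array, with 3 arrays in each of the 3 groups. All 3 groups thus share the line, the virus backbone and the sort. The paper's results mention a gene-specific shRNA for Gata2, and its main text does not say whether other hairpins were tried. Per the study's methods, transduction was done on triplicate samples. Whether these began as separate cultures is not given in the sources used here, and p-values measure the spread between the samples.

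DNA replication starts when CDC6 and CDT1 load the MCM2 to MCM7 helicase onto origins in G1, and CDC45 later joins the helicase as it starts to unwind. Polymerase alpha and its primase lay down primers, the PCNA clamp holds polymerases on DNA, and ribonucleotide reductase, thymidylate synthase and thymidine kinase supply the precursors. The factor E2F1 switches many of these genes on late in G1. Mitotic genes peak later, in G2 and M, and are held down earlier in the cycle by the DREAM complex, which binds CHR elements (cell cycle genes homology regions), and are activated by B-MYB and FOXM1. CCAAT boxes, bound by NF-Y, often lie close to CHR elements. In blood progenitors both programs mark dividing cells, and they shut off as neutrophils mature.

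The promoters of the 2 classes are described by these elements, and 5 are shown because they hold them most plainly. The window was 250 bases before to 50 bases after the RefSeq start of the gene (GRCm38.p6), searched on both strands, and 17 S-phase and 17 mitotic members had an entry. E2F-like letters (TTTCGCGC, TTTGGCGC, TTTCCCGC or TTTGCCGC) were found in 7 of 17 S-phase promoters (41.2%), those of Mcm3, Mcm5, Mcm6, Mcm7, Cdc6, Cdt1 and Pola1, and in 1 of 17 mitotic promoters, that of Cdk1. Of the 27025 genes with an entry, 2.6% held them. A CHR (TTTGAA or TTTAAA) together with CCAAT was found in 13 of 17 mitotic promoters (76.5%), in 4 of 17 S-phase promoters (23.5%) and in 13.4% of all genes. CHR letters alone are short and occurred in 30.6% of all genes, and CCAAT in 41.1%. Some E2F-like matches overlap one another, as in Mcm5 and Mcm6, and a match describes letters only.

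The 160 bases before the start are given 5′ to 3′ on the strand of the gene. Capitals mark E2F-like letters and CCAAT (or ATTGG, its other strand) in the helicase genes Mcm5 (chr8:75109349-75109508, plus strand) and Mcm6 (chr1:128359706-128359865, minus strand), and CHR and CCAAT letters in Ccnb1 (chr13:100786487-100786646, minus strand), Plk1 (chr7:122159275-122159434, plus strand) and Cenpa (chr5:30666726-30666885, plus strand).
Mcm5: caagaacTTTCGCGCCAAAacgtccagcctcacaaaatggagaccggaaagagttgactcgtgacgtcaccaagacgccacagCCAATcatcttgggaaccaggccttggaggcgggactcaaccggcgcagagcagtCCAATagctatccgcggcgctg
Mcm6: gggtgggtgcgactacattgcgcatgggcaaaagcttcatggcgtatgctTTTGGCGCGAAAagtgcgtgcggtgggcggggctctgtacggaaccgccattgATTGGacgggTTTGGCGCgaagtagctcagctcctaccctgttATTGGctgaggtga
Ccnb1: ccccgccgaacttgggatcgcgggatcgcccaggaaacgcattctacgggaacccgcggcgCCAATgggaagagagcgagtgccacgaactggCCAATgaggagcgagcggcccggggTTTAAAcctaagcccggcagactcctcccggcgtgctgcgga
Plk1: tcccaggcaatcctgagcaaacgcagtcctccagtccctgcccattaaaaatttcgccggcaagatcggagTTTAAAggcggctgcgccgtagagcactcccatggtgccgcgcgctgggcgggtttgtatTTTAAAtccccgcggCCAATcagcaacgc
Cenpa: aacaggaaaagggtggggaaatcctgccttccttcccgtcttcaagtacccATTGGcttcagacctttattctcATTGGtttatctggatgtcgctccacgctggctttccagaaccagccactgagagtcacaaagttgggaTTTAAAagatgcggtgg

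Levels are log2 intensities minus the 75th percentile of that array, and a change is a difference of group means on that log2 scale, from limma with Benjamini-Hochberg adjustment over 36585 probes and a threshold of 0.05. Levels of different probes are not compared. The 9 arrays lay on 3 slides, each with 1 array of every group. Between 80.4% and 89.6% of the spots of an array read well above background, and EV replicate 3 correlated least well with the remaining arrays. As a check of the labels, Gata2 read 4.50, 5.04 and 4.86 in EV and 3.61, 2.96 and 3.01 in Gata2 KD, and Spi1 (Pu.1) read -1.66, -1.86 and -2.07 in EV and -3.62, -3.64 and -3.52 in Pu.1 KD. Each targeted gene was called lower in its knockdown. Spi1 was also called higher in Gata2 KD against EV, by 1.39 (adjusted p 0.0012), at -0.66, -0.36 and -0.39. The paper likewise reports more Pu.1 after Gata2 knockdown. The comparison of the knockdowns thus sets cells with raised Spi1 against cells with lowered Spi1, a difference of 3.12.

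In the fit without slide, neither knockdown gave a called change in any of the 40 genes against EV. With slide as a block Tyms was called lower in Gata2 KD (adjusted p 0.0244), where 10.2% of all genes were called. Cdt1 and Foxm1 were then called lower in Pu.1 KD (0.0168 and 0.037), where 6.55% were called. The values that follow are from the fit without slide. In Gata2 KD, where 7.15% of all 15808 genes were called (4.21% higher and 2.95% lower), the changes of the 40 genes ran from -0.57 to 0.29. In Pu.1 KD, where 3.61% of all genes were called (1.45% higher and 2.16% lower), they ran from -0.78 to 0.45. At an unadjusted p under 0.05 there were 6 members in Gata2 KD, all lower (Tyms, Pcna, Mcm3, Ccnb1, Ccnb2 and Kif11), where 17.9% of all genes had such a p and 10.2% were also lower, and 5 in Pu.1 KD, all lower (Cdt1, Rrm2, Tk1, Foxm1 and Tpx2), where 14.4% had such a p and 8.38% were also lower. Against each other the knockdowns differed at 2 members, Cdt1 and Foxm1, both higher in Gata2 KD, where 12.4% of all genes were called and 6.77% were called higher.

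The intervals bound what could have gone unseen. For 37 of 40 genes in Gata2 KD the 95% interval of the change lay within 2-fold either way, and the same held for 70.8% of all genes. The exceptions were Top2a, Ttk and Cenpa, whose intervals reached -1.12, -1.15 and -1.10. In Pu.1 KD it was again 37 of 40 genes, against 73.5% of all genes, and the exceptions were Cdt1, Ttk and Cenpa, with lower bounds of -1.17, -1.04 and -1.33. In bulk RNA, fewer cells in a phase of the cycle and less RNA per cell in that phase cannot be told apart.

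**Figure D1:**
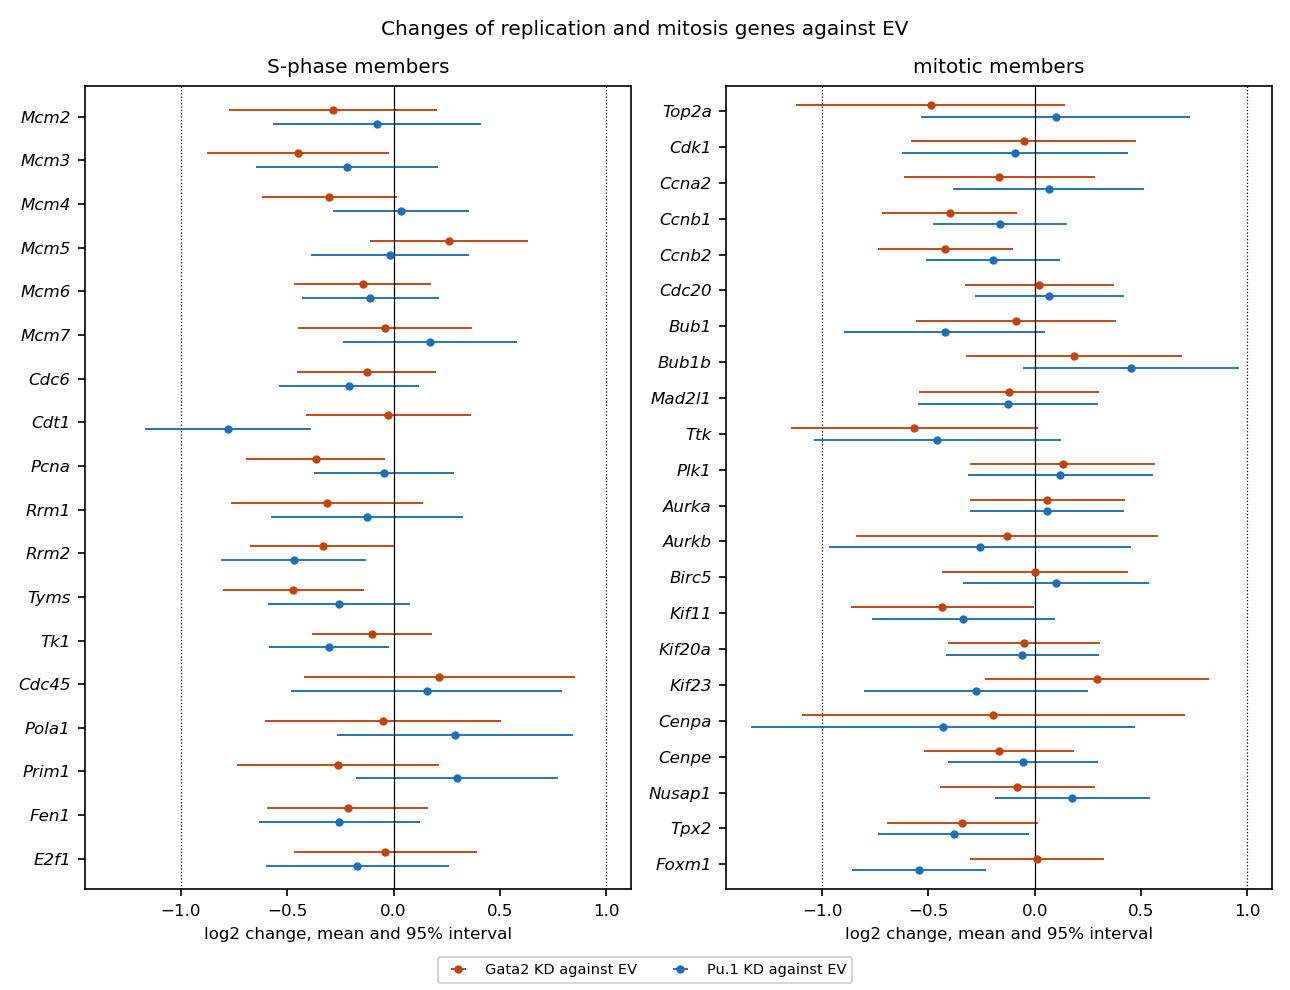
Log2 change against EV for each S-phase member (left) and mitotic member (right), with Gata2 KD in orange and Pu.1 KD in blue. Points are the fitted changes and bars their 95% intervals from 3 arrays a group, and dotted lines mark a 2-fold change. Most intervals span 0 and stay inside the dotted lines, and the lowest point is that of Cdt1 in Pu.1 KD at -0.78.

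Signs leaned below 0 in both classes, as they did in the whole table (except in Pu.1 KD under quantile normalization, with 49.2% of all genes below 0). In Gata2 KD 31 of 40 changes were below 0, with 63.2% of all genes, and the medians were -0.18 for the S-phase and -0.10 for the mitotic members beside -0.09 for all genes. In Pu.1 KD 27 of 40 were below 0, with 57.1% of all genes, and the medians were -0.12 and -0.11 beside -0.04. These medians moved with single arrays. Leaving out EV replicate 3 brought the S-phase median in Pu.1 KD to -0.01, and within the slides that median was -0.13, -0.21 and -0.03. The mitotic median in Pu.1 KD ran from -0.21 (without EV replicate 1 or Pu.1 KD replicate 2) to -0.05 (without EV replicate 2 or 3), and within the slides it was -0.07, -0.33 and 0.06, with 9 of 22 genes lower on slide 3. In Gata2 KD the mitotic median ran from -0.23 (without EV replicate 1) to -0.01 (without EV replicate 2), also nearing 0 at -0.05, -0.06 and -0.04 without EV replicate 3 and Gata2 KD replicates 2 and 3. Its values within the slides were -0.03, -0.28 and -0.05. The S-phase median in Gata2 KD stayed between -0.21 and -0.15 with any 1 array left out, and was -0.08, -0.40 and -0.13 within the slides.

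Taking the S-phase genes as a class, each array was summarized by the median, over the 18 genes, of the level minus the gene's mean over the 9 arrays. These medians ran from -0.01 to 0.22 in EV, from -0.14 to -0.04 in Gata2 KD and from -0.17 to 0.12 in Pu.1 KD. The 3 Gata2 KD arrays lay just below the 3 EV arrays, and the Pu.1 KD arrays overlapped both groups. The closest pair read -0.04 and -0.01, beside a median change of -0.09 over all genes in Gata2 KD. For 59 further replication genes EV (-0.09 to 0.20) and Gata2 KD (-0.15 to -0.04) overlapped, as they did for 62 further mitosis genes. They lay apart for 18 E2F and DREAM regulators (-0.01 to 0.22, -0.29 to -0.04). The same held for 12 progenitor markers (-0.09 to 0.14, -0.25 to -0.10). For the 22 mitotic genes the medians ran from -0.13 to 0.17 in EV, from -0.15 to 0.06 in Gata2 KD and from -0.11 to 0.18 in Pu.1 KD, and all 3 groups overlapped.

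Among the licensing genes, no subunit of the MCM helicase was called, and their changes lay on both sides of 0. Mcm2 read 2.79, 3.24 and 2.89 in EV, 2.87, 2.48 and 2.70 in Gata2 KD and 2.73, 3.28 and 2.67 in Pu.1 KD. Mcm3 read 3.38, 3.40 and 3.46 in EV, 2.61, 2.94 and 3.34 in Gata2 KD and 3.25, 3.12 and 3.21 in Pu.1 KD. Both knockdowns lay below EV for Mcm3 on every array, and in Gata2 KD its 3 arrays spread far wider than those of EV (SD 0.37 against 0.04). Its change in Gata2 KD was -0.45 with an SE of 0.19 (adjusted p 0.311).

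Mcm4 lay lower on the Gata2 KD arrays alone, at 4.64, 4.66 and 4.84 in EV, 4.58, 4.39 and 4.27 in Gata2 KD and 4.65, 4.83 and 4.77 in Pu.1 KD. Mcm5 went the other way, with 4.74, 5.02 and 5.01 in EV, 5.15, 5.37 and 5.02 in Gata2 KD and 4.89, 5.09 and 4.73 in Pu.1 KD. It was the sole member whose Gata2 KD arrays all lay above the EV arrays, although the closest pair read 5.02 each after rounding, and its change of 0.26 had a 95% interval from -0.11 to 0.63. In the same Gata2 KD contrast Mcm6 had an interval from -0.47 to 0.18 and Mcm7 one from -0.45 to 0.37. The 6 subunits form 1 complex, and in Gata2 KD their changes ran from -0.45 (Mcm3) to 0.26 (Mcm5), with 5 of 6 below 0.

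Cdc6, the loader that recruits the helicase to origins, read 0.04, 0.03 and 0.36 in EV, 0.01, -0.05 and 0.09 in Gata2 KD and -0.0086, -0.0016 and -0.19 in Pu.1 KD. Its Pu.1 KD arrays lay below its EV arrays, yet the change was -0.21 with an interval from -0.54 to 0.12. Cdt1, the partner of CDC6 in loading, had the largest difference of the 40 genes. It read 4.62, 4.74 and 4.36 in EV, 4.69, 4.47 and 4.49 in Gata2 KD and 3.54, 3.86 and 3.98 in Pu.1 KD. All 3 Pu.1 KD arrays lay below the other 6 arrays, while EV and Gata2 KD overlapped. Cdt1 was 0.75 higher in Gata2 KD than in Pu.1 KD (1.69-fold, SE 0.17, adjusted p 0.0258). Against EV the change in Pu.1 KD was -0.78 (SE 0.17, adjusted p 0.0556) and that in Gata2 KD was -0.02 (interval from -0.41 to 0.36). Within the slides Pu.1 KD minus EV was -0.64, -0.82 and -0.88. With slide as a block Cdt1 was called lower in Pu.1 KD against EV as well (adjusted p 0.0168, where 6.55% of all genes were called).

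The call of Cdt1 between the knockdowns was lost in 7 of 20 alternative settings (adjusted p from 0.000693 to 0.161). Among them was leaving out any 1 Gata2 KD array (0.0912, 0.0765 and 0.0742 without replicates 1, 2 and 3), Pu.1 KD replicate 1 (0.0991) or Pu.1 KD replicate 2 (0.0716).

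The 4 genes of precursor supply had mean levels below EV in both knockdowns, and none was called in the fit without slide. Rrm2, the regulated subunit of ribonucleotide reductase, read 2.37, 2.32 and 2.43 in EV, 2.24, 1.87 and 2.01 in Gata2 KD and 1.74, 2.06 and 1.91 in Pu.1 KD. Tyms, thymidylate synthase, read 4.41, 4.69 and 4.53 in EV, 4.21, 4.04 and 3.97 in Gata2 KD and 4.20, 4.46 and 4.20 in Pu.1 KD. Neither gene's Gata2 KD arrays overlapped its EV arrays, and for Rrm2 the Pu.1 KD arrays lay below EV too. The changes of Rrm2 were -0.33 in Gata2 KD (adjusted p 0.363) and -0.47 in Pu.1 KD (adjusted p 0.19).

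Tyms had the smallest p of the 40 genes in Gata2 KD against EV, with a change of -0.47 (SE 0.15, adjusted p 0.138), and within the slides the difference was -0.45, -0.49 and -0.48. With slide as a block it was called lower (adjusted p 0.0244), the only member called in that contrast, where 10.2% of all genes were called and 4.88% were lower. The dimmer Tyms probe gave a similar value of -0.45, also not called without the block (adjusted p 0.235). Tk1, cytosolic thymidine kinase, read 2.96, 3.07 and 3.04 in EV, 2.91, 2.98 and 2.88 in Gata2 KD and 2.74, 2.82 and 2.59 in Pu.1 KD. Its Pu.1 KD arrays lay below those of both other groups, at a change of -0.31 against EV (adjusted p 0.344). Rrm1, the large reductase subunit, changed by -0.31 and -0.13 with intervals that spanned 0.

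At the fork, Pcna read 5.06, 5.29 and 5.39 in EV, 5.04, 4.74 and 4.86 in Gata2 KD and 5.17, 5.26 and 5.17 in Pu.1 KD. The Gata2 KD arrays lay below both other groups, most closely at 5.04 against 5.06 in EV, and the change against EV was -0.37 (adjusted p 0.271). Prim1, the catalytic primase subunit, read 3.62, 4.03 and 4.21 in EV, 3.93, 3.76 and 3.38 in Gata2 KD and 4.33, 4.35 and 4.09 in Pu.1 KD. Between the knockdowns Prim1 differed by -0.56 (adjusted p 0.17), and this was called with slide as a block (adjusted p 0.0223, where 17.6% of all genes were called and 8.68% were lower).

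Fen1, the nuclease that trims Okazaki fragments, read 2.29, 2.33 and 2.21 in EV, 1.92, 1.94 and 2.32 in Gata2 KD and 2.12, 2.15 and 1.79 in Pu.1 KD, with a Gata2 KD array inside the EV range. Cdc45 and Pola1 varied more between arrays of 1 group, with SDs up to 0.51 and 0.43, and their intervals against EV reached 0.85 and 0.84 at most. E2f1 read 0.63, 0.46 and 1.04 in EV, 0.42, 0.87 and 0.72 in Gata2 KD and 0.53, 0.60 and 0.49 in Pu.1 KD. The 3 groups overlapped for E2f1, and its changes of -0.04 and -0.17 had intervals from -0.47 to 0.39 and from -0.60 to 0.26. The dimmer E2f1 probe had the opposite sign in both knockdowns, at 0.18 and 0.14, also not called.

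**Figure D2:**
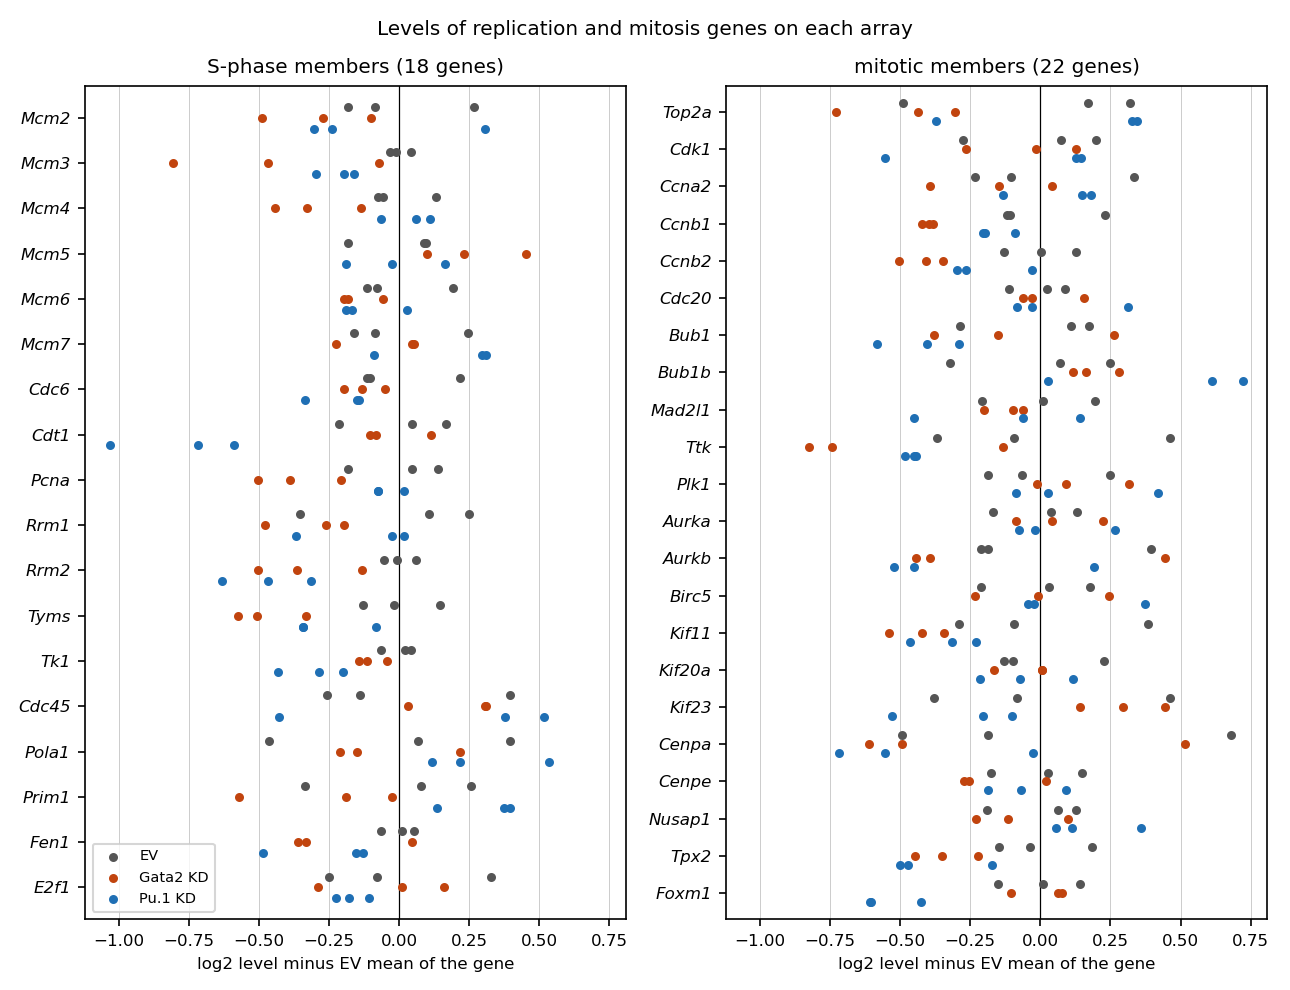
Log2 level of each gene on each of the 9 arrays minus the EV mean of the gene, for S-phase members (left) and mitotic members (right), with EV in gray, Gata2 KD in orange and Pu.1 KD in blue. The 3 Pu.1 KD points stand apart to the left for Cdt1 and Foxm1, the 3 Gata2 KD points for Ccnb1 and Ccnb2, and most other rows overlap.

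Among mitotic genes, the B-type cyclins, which activate CDK1 at mitotic entry, had the smallest p in Gata2 KD against EV. Ccnb1 read 2.15, 2.16 and 2.50 in EV, 1.85, 1.89 and 1.88 in Gata2 KD and 2.07, 2.18 and 2.08 in Pu.1 KD. Ccnb2 read 5.37, 5.23 and 5.49 in EV, 5.01, 4.86 and 4.96 in Gata2 KD and 5.07, 5.33 and 5.10 in Pu.1 KD. For both cyclins all 3 Gata2 KD arrays lay below the other 6 arrays. The changes were -0.40 for Ccnb1 (SE 0.14, adjusted p 0.194) and -0.42 for Ccnb2 (SE 0.14, adjusted p 0.169), and neither was called with slide as a block (0.107 and 0.111). The further Ccnb1 probes gave -0.32 and -0.47, also not called.

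Cdk1 itself, the kinase these cyclins bind, read 1.91, 2.38 and 2.26 in EV, 1.92, 2.31 and 2.17 in Gata2 KD and 2.31, 2.33 and 1.63 in Pu.1 KD. Its groups overlapped, with changes of -0.05 and -0.09 and intervals from -0.58 to 0.48 and from -0.62 to 0.44. Ccna2, the cyclin of S and G2, had intervals from -0.61 to 0.29 in Gata2 KD and from -0.38 to 0.52 in Pu.1 KD. Cdc20, an activator of the anaphase-promoting complex, read 5.33, 5.53 and 5.47 in EV, 5.60, 5.41 and 5.38 in Gata2 KD and 5.36, 5.76 and 5.41 in Pu.1 KD. Its groups overlapped, and its intervals ran from -0.33 to 0.37 in Gata2 KD and from -0.28 to 0.42 in Pu.1 KD.

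Of the spindle checkpoint genes, Bub1 read 1.67, 2.13 and 2.07 in EV, 2.22, 1.81 and 1.58 in Gata2 KD and 1.38, 1.67 and 1.56 in Pu.1 KD. Bub1b read 1.97, 2.54 and 2.36 in EV, 2.40, 2.57 and 2.45 in Gata2 KD and 3.01, 2.90 and 2.32 in Pu.1 KD. These checkpoint partners differed from EV in opposite directions in Pu.1 KD, by -0.42 and 0.45, with adjusted p of 0.487 and 0.493. Ttk, the checkpoint kinase MPS1, read -3.24, -2.96 and -2.41 in EV, -3.69, -3.61 and -3.0 in Gata2 KD and -3.32, -3.35 and -3.31 in Pu.1 KD. The Pu.1 KD arrays of Ttk agreed closely (SD 0.02) and lay below all EV arrays, but the EV arrays spread widely (SD 0.42), and its changes were -0.57 and -0.46. Mad2l1 had changes of -0.12 in both knockdowns, with overlapping groups.

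For Top2a, the topoisomerase that untangles sister DNA, the levels were 1.98, 2.64 and 2.79 in EV, 1.74, 2.03 and 2.16 in Gata2 KD and 2.81, 2.79 and 2.10 in Pu.1 KD. A low EV array at 1.98 overlapped the Gata2 KD arrays, and the change of -0.49 in Gata2 KD had an interval from -1.12 to 0.14. The dimmer Top2a probe gave -0.07. The motor Kif11, which pushes spindle poles apart, read -0.03, -0.23 and 0.44 in EV, -0.28, -0.48 and -0.36 in Gata2 KD and -0.40, -0.17 and -0.26 in Pu.1 KD.

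Kif23, a motor of the midzone and cytokinesis, read 0.53, 0.83 and 1.37 in EV, 1.20, 1.05 and 1.36 in Gata2 KD and 0.71, 0.81 and 0.38 in Pu.1 KD. Its knockdown groups did not overlap (0.57 higher in Gata2 KD, adjusted p 0.222), and the EV arrays overlapped both. The spindle assembly factor Tpx2 read 2.73, 2.84 and 3.06 in EV, 2.65, 2.43 and 2.53 in Gata2 KD and 2.41, 2.70 and 2.38 in Pu.1 KD. Both knockdowns lay below EV for Tpx2 on every array, by -0.34 and -0.38 (adjusted p 0.372 and 0.352). Nusap1, a microtubule-bundling protein, read 1.40, 1.65 and 1.72 in EV, 1.69, 1.47 and 1.36 in Gata2 KD and 1.71, 1.95 and 1.65 in Pu.1 KD. Kif20a and Cenpe, motors of cytokinesis and of chromosome alignment, changed by -0.05 and -0.17 in Gata2 KD and by -0.06 and -0.05 in Pu.1 KD, inside intervals that spanned 0.

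Foxm1, which encodes the activator of G2 and M genes, was the other member that differed between the knockdowns. It read 1.14, 1.01 and 0.85 in EV, 0.89, 1.06 and 1.08 in Gata2 KD and 0.39, 0.40 and 0.57 in Pu.1 KD. As for Cdt1, the Pu.1 KD arrays lay below all other arrays while EV and Gata2 KD overlapped. Foxm1 was 0.56 higher in Gata2 KD than in Pu.1 KD (1.47-fold, SE 0.14, adjusted p 0.0389). Against EV the change in Pu.1 KD was -0.54 (SE 0.14, adjusted p 0.0934), called with slide as a block (adjusted p 0.037), and within the slides it was -0.57, -0.46 and -0.61. In Gata2 KD the change was 0.01, with an interval from -0.30 to 0.33. The call between the knockdowns was lost in 12 of 20 alternative settings (adjusted p from 0.00661 to 0.168), among them leaving out any 1 of the 6 knockdown arrays or EV replicate 2 (0.0615 to 0.154 over these 7).

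Plk1, the kinase that drives mitotic entry and exit, read 3.94, 4.37 and 4.06 in EV, 4.44, 4.21 and 4.11 in Gata2 KD and 4.03, 4.54 and 4.15 in Pu.1 KD. Its changes of 0.13 and 0.12 were not called. Aurkb, the kinase of the chromosomal passenger complex, read 1.06, 1.66 and 1.08 in EV, 1.71, 0.87 and 0.82 in Gata2 KD and 0.74, 1.46 and 0.82 in Pu.1 KD, with changes of -0.13 and -0.26 that were not called. In each group 1 array stood above the other 2 for both kinases, and these 3 arrays were those of slide 3.

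This slide pattern was complete in 6 mitotic genes, singled out after their values were seen. For Plk1, Aurka, Aurkb, Birc5 (survivin, a passenger complex subunit), Cenpa (the centromeric histone H3) and Cdc20 the 3 arrays of slide 3 all lay above the other 6 arrays. Among S-phase members Pola1 alone showed this, and among all genes 2.9% did. The share of variance between slides was 89.9% for Aurka, 88.6% for Aurkb, 86.9% for Birc5, 82.1% for Plk1, 79.5% for Cenpa and 76% for Cdc20. For Cenpa slide 3 read 2.66 in EV, 2.50 in Gata2 KD and 1.96 in Pu.1 KD, and the other arrays ran from 1.26 to 1.79.

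The other 16 mitotic genes were not ordered this way. By a looser count, the slide 3 array was the highest of its group in all 3 groups for 8 of 22 mitotic genes. The same held for 3 of 18 S-phase genes and for 1770 of 15775 genes in the whole table. Ccnb2, Kif11 and Kif20a had 1.66%, 1.94% and 5.59% of their variance between slides. In a moderated F test of slide, added after the data were seen, 3 of 22 mitotic genes were called (Aurkb, adjusted p 0.00895, Cenpa, 0.0125, and Birc5, 0.0448) and 1 of 18 S-phase genes (Pola1, 0.0448), where 26.2% of all genes were called. The median share of variance between slides was 38.5% for mitotic and 21.9% for S-phase genes beside 39.2% for all genes, and the median share between groups was 31.2% and 42.1% beside 26.6%. Slide 3 also had the fewest spots well above background (80.4% to 84% against 85.6% to 89.6%), and the part of this in the levels was not tested. Whether samples of 1 slide also shared a culture or a sort is not given in the sources used here.

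**Figure D3:**
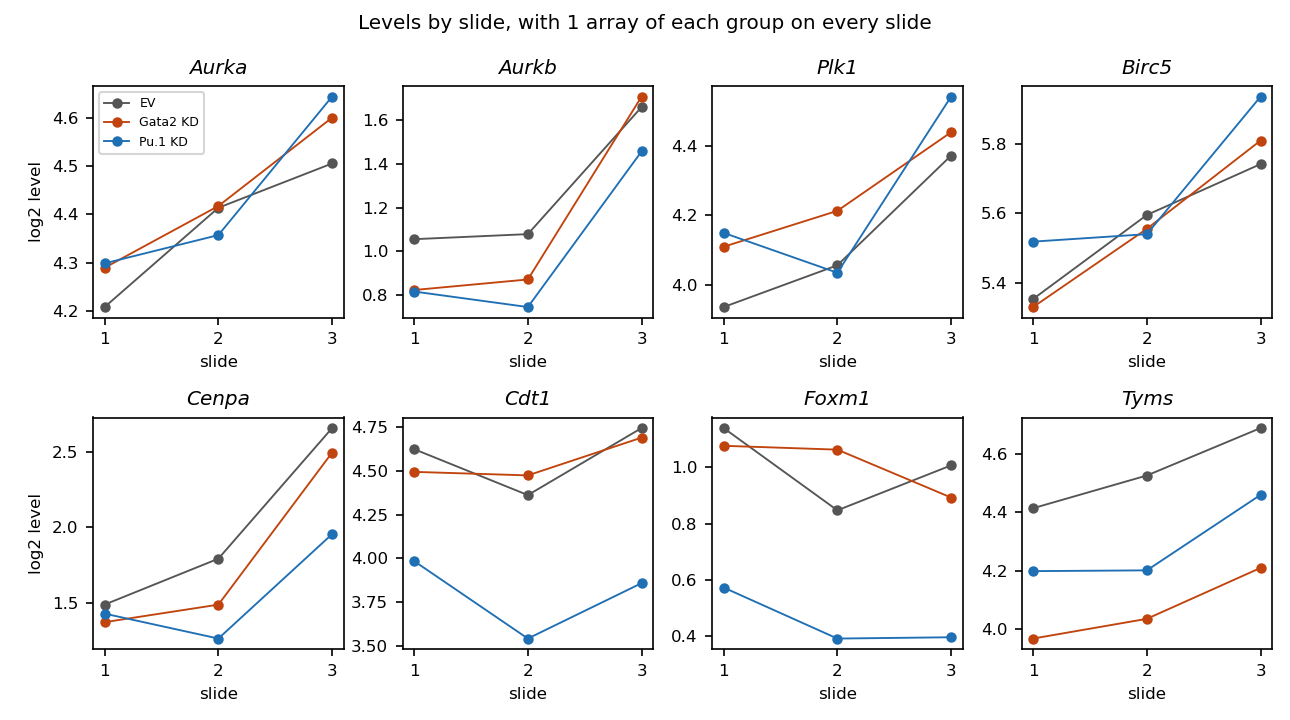
Log2 level against slide for 8 genes, with a point for each array and lines that join the arrays of a group (EV gray, Gata2 KD orange, Pu.1 KD blue). Axes differ between panels. Aurka, Aurkb, Plk1, Birc5 and Cenpa peak on slide 3 in every group, whereas for Cdt1 and Foxm1 the Pu.1 KD line lies below the others on every slide and for Tyms the Gata2 KD line lies lowest.

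Groups that do not overlap give another count. In Gata2 KD 9 of 40 members lay wholly below EV (Mcm3, Mcm4, Pcna, Rrm2, Tyms, Ccnb1, Ccnb2, Kif11 and Tpx2), beside 13.6% of all genes, and Mcm5 alone lay above, beside 9.5%. In Pu.1 KD 10 lay wholly below EV (Mcm3, Cdc6, Cdt1, Rrm2, Tk1, Fen1, Bub1, Ttk, Tpx2 and Foxm1), beside 11.9%, and none lay above, beside 8.61%. The margin was slight for Bub1, whose highest Pu.1 KD array and lowest EV array both round to 1.67. Both comparisons share the EV arrays, so the genes named in both (Mcm3, Rrm2 and Tpx2) are not independent. Within the slides, 16 of 40 members were lower in Gata2 KD on all 3 slides, beside 29.5% of all genes, and 16 were lower in Pu.1 KD, beside 24.9%. Higher on all 3 slides were 3 and 5 members, beside 16.7% and 17.9% of all genes, and 21 and 19 were mixed.

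Between the knockdowns the 2 classes had medians of -0.11 (S-phase) and -0.02 (mitotic) beside -0.03 for all genes, and 21 of 40 changes were below 0 with 55.1% of all genes. Beside Cdt1 and Foxm1, Tk1 and Kif23 lay wholly higher in Gata2 KD, and Mcm4, Pcna, Prim1, Ccnb1 and Ccnb2 wholly lower, where 14.3% and 15.8% of all genes did. Intervals lay within 2-fold either way for 35 of 40 genes, beside 67.8% of all genes. The 9 genes with several probes had 11 further probes, and none of these was called in any of the 3 comparisons. The least precise was the dimmer Cdk1 probe, at -0.65 in Pu.1 KD against EV with an SE of 0.64. Cdt1 and Foxm1 had 1 probe each.

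Wider lists of the same pathways gave few calls, but most of their changes in Gata2 KD against EV were below 0. The Gata2 KD medians were -0.19 for further replication genes (45 of 59 below 0) and -0.20 for further mitosis genes (52 of 62). For regulators of the E2F, retinoblastoma and DREAM families the median was -0.24 (15 of 18), beside -0.09 and 63.2% for all genes. In Pu.1 KD the 3 medians were -0.05, -0.02 and -0.004 (34, 32 and 9 below 0), beside -0.04 and 57.1%. Of 59 further replication genes measured, none was called against EV in either knockdown. In Gata2 KD 11 had an unadjusted p under 0.05 (2 higher, 9 lower), beside 17.9% of all genes. In Pu.1 KD 6 did (2 higher, 4 lower), beside 14.4%. Between the knockdowns Samhd1, which hydrolyzes deoxynucleotides and is abundant in myeloid cells, was 1.51 higher in Gata2 KD (SE 0.22, adjusted p 0.00326). Its levels were 0.43, 1.13 and 1.20 in EV, 1.84, 1.64 and 1.59 in Gata2 KD and 0.34, 0.25 and -0.04 in Pu.1 KD, without overlap between the groups. With slide as a block Samhd1 was also called against EV, higher in Gata2 KD (0.77, adjusted p 0.0302) and lower in Pu.1 KD (-0.74, adjusted p 0.0465), the sole gene of this list that was. Between the knockdowns the block gave 2 called higher and 4 lower, where 17.6% of all genes were called and 8.68% were lower. In the fit without slide Chaf1b, a subunit of the chromatin assembly factor that follows the fork, was the 1 gene called lower in Gata2 KD. It differed by -0.56 against Pu.1 KD (adjusted p 0.0417, lost in 12 of 20 alternative settings).

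Of 62 further mitosis genes, Prc1 alone was called against EV in the fit without slide, in Pu.1 KD. Prc1, a crosslinker of the spindle midzone, fell by 0.82 (SE 0.15, adjusted p 0.031), from 3.79, 3.79 and 4.06 in EV to 2.88, 3.03 and 3.28 in Pu.1 KD, with 3.73, 3.57 and 3.62 in Gata2 KD. The call was lost in 12 of 20 alternative settings, among them leaving out any 1 of the 9 arrays (adjusted p up to 0.154). With slide as a block Prc1 stayed called in Pu.1 KD (adjusted p 0.0331), and calls were added for Zwint, a kinetochore protein, lower in Gata2 KD (-0.56, adjusted p 0.0396), and for Gtse1, lower in Gata2 KD (-0.74, adjusted p 0.00679) and higher in Pu.1 KD (0.56, adjusted p 0.0294). Without the block the SE of Gtse1 was 0.77. Smc4, a condensin subunit, differed by -0.81 between Gata2 KD and Pu.1 KD (adjusted p 0.0154, lost with scaling to the median and without Gata2 KD replicate 1 or Pu.1 KD replicate 2 or 3). It was the 1 gene of this list called between the knockdowns, where 12.4% of all genes were called. The block gave 8 of 62, all lower in Gata2 KD, where 17.6% of all genes were called and 8.68% were lower.

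Of 18 regulators from the E2F, retinoblastoma and DREAM families, none was called against EV in the fit without slide. At an unadjusted p under 0.05 there were 5 in Gata2 KD, all lower, beside 17.9% of all genes. In Pu.1 KD there were 3 (2 higher, 1 lower), beside 14.4%. With slide as a block E2f7 and Tfdp2 were called lower in Gata2 KD (-0.48 each, adjusted p 0.0378 and 0.0303), and E2f2 and E2f6 higher in Pu.1 KD (0.49 and 0.51, adjusted p 0.0346 and 0.0318). E2f2, an activator E2F, and E2f5, a repressor E2F of DREAM, were both lower in Gata2 KD when set against Pu.1 KD, by -0.62 (adjusted p 0.0311) and -0.61 (0.0297). They were the 2 regulators called there, where 12.4% of all genes were called. With the block 5 were called, all lower, where 17.6% of all genes were called and 8.68% were lower. E2f2 read 1.93, 2.24 and 2.10 in EV, 2.13, 1.94 and 1.82 in Gata2 KD and 2.55, 2.67 and 2.52 in Pu.1 KD. For E2f2 the Pu.1 KD arrays stood above both other groups, whereas for Cdt1 and Foxm1 they stood below. E2f5 read low, at -2.62, -2.27 and -2.55 in EV, -3.12, -3.10 and -2.90 in Gata2 KD and -2.44, -2.38 and -2.45 in Pu.1 KD. The calls of E2f2 and E2f5 were lost in 7 and 12 of 20 alternative settings, leaving out any 1 Pu.1 KD array and scaling to the median among them. That of E2f5 was also lost with quantile normalization, normexp background correction and the deposited values.

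These small differences stood beside large ones in lineage markers. Of 16 neutrophil markers 14 were called higher in Gata2 KD (median change 3.0) and 10 lower in Pu.1 KD (median -1.10). Of 14 monocyte and macrophage markers 11 were called higher in Gata2 KD (median 2.71) and 4 lower in Pu.1 KD (median -0.36). Levels summed over the list on the linear scale ran from 242.1 to 271.5 in EV, from 1141 to 1360 in Gata2 KD and from 106.5 to 125.5 in Pu.1 KD for neutrophil markers. The corresponding sums for monocyte and macrophage markers were 36.8 to 40.4, 263.5 to 319.9 and 16.6 to 17.7. Mpo, myeloperoxidase of the primary granule, read 5.83, 5.85 and 6.08 in EV, 9.0, 8.98 and 9.02 in Gata2 KD and 3.01, 3.35 and 2.98 in Pu.1 KD.

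Of the remaining marker lists, 12 progenitor markers had 3 called higher and 4 lower in Gata2 KD and 1 each way in Pu.1 KD. Of 11 mast cell and basophil markers 8 were called lower in Gata2 KD, and in Pu.1 KD 1 was called higher and 3 lower. Gata2, the shRNA target, is in both the progenitor and the mast cell list and is 1 of the genes called lower in Gata2 KD. Of 9 erythroid markers 3 were called lower in Gata2 KD and 2 higher in Pu.1 KD, and of 9 megakaryocyte markers 2 and 3 were called higher and 1 lower in each. Of 11 lymphoid markers none was called in Gata2 KD (1 had an unadjusted p under 0.05) and 1 was called lower in Pu.1 KD. None of these marker genes was below background on all 9 arrays, and their part in the levels of replication and mitosis genes was not tested.

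**Figure D4:**
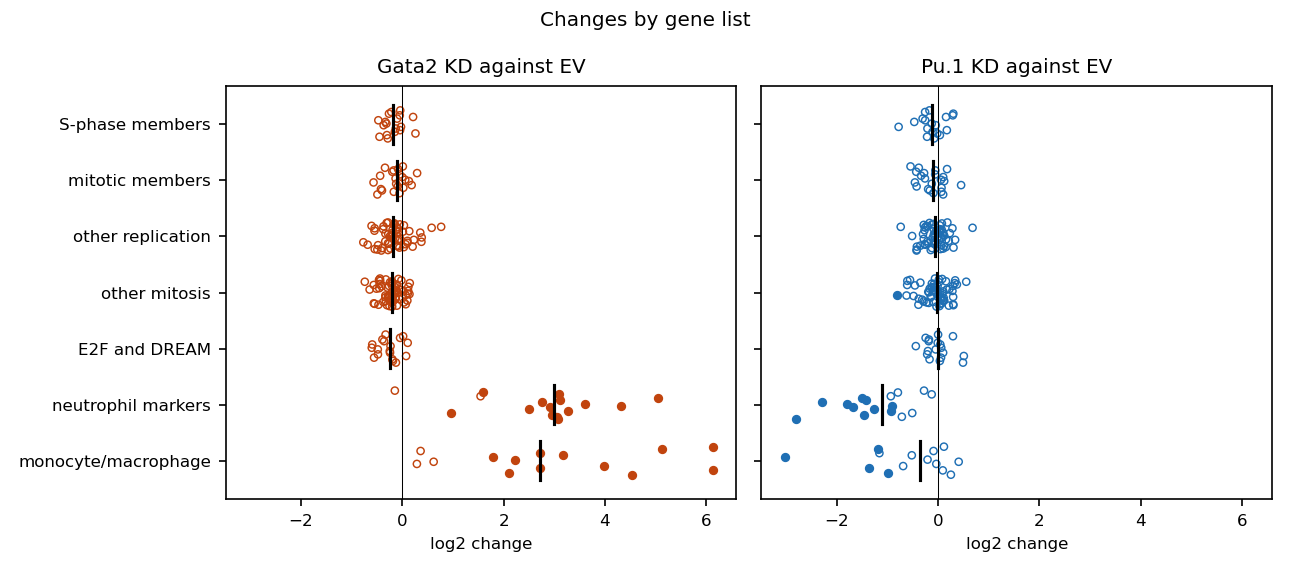
Log2 change against EV of every gene tested in 7 lists, for Gata2 KD (left) and Pu.1 KD (right). Each circle is a gene, filled where called at an adjusted p under 0.05, and black bars are list medians. The 5 cell cycle lists cluster around 0 with 1 filled circle (Prc1 in Pu.1 KD), while the neutrophil markers reach medians of 3.0 and -1.10.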

How the data were processed

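RNA carrying a single dye (Cy3) was hybridized to Agilent 4x44K mouse arrays (design annotated to mm8). The authors deposited scanner output from Feature Extraction 10.1.1.1, with background-subtracted processed intensity and median spot and background intensity, and a table of log2 values of the 9 arrays (processing not stated in detail, used as an alternative). Here the log2 processed signal was averaged per probe, without control and outlier-flagged spots (47 to 96 per array), minus the 75th percentile of the array. Probes well above background on at least 3 of 9 arrays with at least 2 values per group were tested (36585 of 41174). The tests used limma 3.58.1 in R 4.3.3 (group means over 9 arrays, two-sided, Benjamini-Hochberg). The procedure was tried on simulated data with independent arrays and no slide effect, so that trial does not cover slide. Arrays, not counts, limit the precision. Unversioned accessions were matched to RefSeq (GRCm38.p6), which named 23374 probes (16535 genes), and the brightest tested probe stood for a gene (15808 genes). Promoter sequences are RefSeq's.

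The members and lists were chosen with earlier results of these data known. All members may be named. Levels on every array are given for fixed landmark genes, for called members and for the 6 members of a class with the smallest p in a comparison. Of the wider lists the called genes with the largest change are named, and of the marker lists any of the 3 brightest genes, besides Gata2 and Spi1. Genes of the wider lists that were called against EV only with slide as a block are named after their values were seen. The 20 alternatives covered blocks, background correction (normexp on the median signals, offset 50, since mean signals were not used here), normalization, filters, variance settings, deposited values, only the groups compared, and each array left out. A further setting averaged the probes of a gene, for the medians alone.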

Additional observations from a re-analysis of the deposited data

How the results depend on the processing

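With 3 arrays a group, calls moved with the setting. Over 2400 refits of a member in a comparison, 17 gained and 19 lost a call and none reversed a called change. The medians of both classes stayed below 0 in each comparison under quantile, median and normexp scaling and in the deposited values. In Gata2 KD against EV 1 S-phase member (Tyms) was called with slide as a block, normexp, trend and robust settings or the deposited values, and 1 mitotic member (Ccnb2) with trend and robust settings. In Pu.1 KD against EV Cdt1 and Foxm1, 1 of each class, were called under the same 4 settings, and Cdt1 also among probes above background on all 9 arrays. Between the knockdowns 2 S-phase members (Cdt1 and Prim1) were called with slide as a block, normexp or the deposited values. Scaling to the median left 0 of either class, and quantile normalization, no filter on dim probes and fitting only the groups compared left 0 mitotic members. The cause was not tested.

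For arrays of different groups, correlations were taken on levels minus the group mean of each probe. Arrays with the same replicate number correlated from -0.55 to 0.65, and whether they were prepared together cannot be told from this. The pair at 0.65, EV and Pu.1 KD replicate 2, also shared a slide. Arrays of different groups on the same slide correlated from -0.04 to 0.72, and pairs that shared neither number nor slide from -0.63 to 0.35. The main fit did not use slide. With the replicate block 0 members of either class were called, Cdt1 and Foxm1 between the knockdowns having adjusted p of 0.0903 and 0.14, and probes called were 1172 in Gata2 KD and 234 in Pu.1 KD against EV, beside 1902 and 986 without it. Those counts were 2886 and 1875 with slide as a block, 1114 and 223 with only the groups compared, and 1203 (839 higher, 364 lower, beside 1084 and 818) and 377 with scaling to the median, which gave 2259 between the knockdowns beside 3524. In Pu.1 KD they were 1575 with trend and robust settings and 1785 with the deposited values.

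Leaving out 1 array at a time, probes called in Gata2 KD ran from 1072 to 1698 (lowest without Gata2 KD replicates 2 and 3, at 1072 and 1211), in Pu.1 KD from 280 to 824 (628 or fewer without EV replicate 1 or 2, Gata2 KD replicate 2 or 3 or any Pu.1 KD array, lowest without Pu.1 KD replicate 1) and between the knockdowns from 2206 (without Gata2 KD replicate 2) to 3931, where members called ran from 0 to 1 in either class. The S-phase median in Pu.1 KD ran from -0.19 to -0.0093 (without EV replicate 3). The mitotic median between the knockdowns ran from -0.12 to 0.057, above 0 without Pu.1 KD replicate 2 or Gata2 KD replicate 3.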
